A study of Drosophila melanogaster with 2 samples.

Results

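Binding of a tagged org-1 protein was examined at 10 regulators of somatic muscle identity, out of 13945 protein-coding genes. The members were taken by name: slou, lbe, lbl, ap, Ptx1, Six4, Poxm, nau, kn and vg. Each was given a window that held the gene and 5 kb beyond either end. The data are chromatin immunoprecipitation sequencing (ChIP-seq) peak lists from whole embryos of Drosophila melanogaster, males and females pooled, collected from 2 to 24 h of age. All embryos came from a line with an org-1 transgene that carries green fluorescent protein at its C-terminal end, precipitated with an antibody against that protein according to the labels' description, while their antibody field reads org-1. The 2 libraries are biological replicates of this single group, so no second genotype, treatment or stage was compared, and the values describe the whole embryo rather than muscle founder cells. A line without the tag was not analysed here.

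In the fly embryo each somatic muscle is seeded by 1 founder cell, which fuses with neighbouring myoblasts and imposes its own shape, attachment and innervation on them. The founder's character is set by a combination of transcription factors called muscle identity genes, and most members encode such factors. Org-1, the fly counterpart of vertebrate Tbx1, is itself an identity factor, and published genetic work places slou and the ladybird genes lbe and lbl downstream of it in particular founders.

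A summit is the position of highest enrichment that the authors gave for a region, and the signal value is their own measure of a region's strength. Each of the 3 candidate lists (replicate 1, replicate 2 and the pooled replicates) holds 30000 regions, most of them weak. The pooled list is labelled as peaks and background, so a candidate is not by itself a called peak. The optimal list holds the 4434 pooled regions kept by the authors' reproducibility threshold, which are ranks 1 to 4434 of the pooled list. Its signal runs from 100.7 to 2560 with a median of 164. The read depth behind these values is unknown. The signal of an optimal peak was close to the summed signal of both replicates (median ratio of sum to pooled signal 0.997). That median is over the 4264 optimal peaks that have a candidate in each replicate.

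The share of members with an optimal summit was near that of all genes. Of the 10 members, 5 (Poxm, nau, kn, vg and lbl) had an optimal summit in the window, against 41.0% of all protein-coding genes. Long windows catch more summits, and among the 3728 genes with windows as long as the members' own (13.9 to 44.4 kb) the share was 52.5%. More than 1 summit was found at 3 members (nau, kn and Poxm), against 17.0% of all genes and 26.7% of those of like length. The strongest 4434 regions of replicate 1 gave the same 5 members, against 40.4% of all genes. Those of replicate 2 gave 4 members (Poxm, nau, kn and Ptx1), against 40.5%. Among the 1000 strongest optimal peaks, 1 member (Poxm) was left, against 15% of all genes.

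The 10 optimal summits at members lay in 8 separate stretches, because neighbouring summits at Poxm and upstream of nau were 200 bp apart. Their median signal was 164, the same as the list's. Of the 10 summits, 5 lay within 500 bp of a start of a neighbouring gene, 1 within 500 bp of the member's own start, 3 in an intron of the member and 1 between genes. Over all optimal summits 37.6% lay within 500 bp of a start, 43.0% in introns and 17.9% between genes. A summit within 500 bp of an own start was thus found at 1 member of 10, against 13.6% of all genes. The member's own start was the nearest start to a summit at 2 members (Poxm and kn), against 19.0% of all genes.

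**Figure D1:**
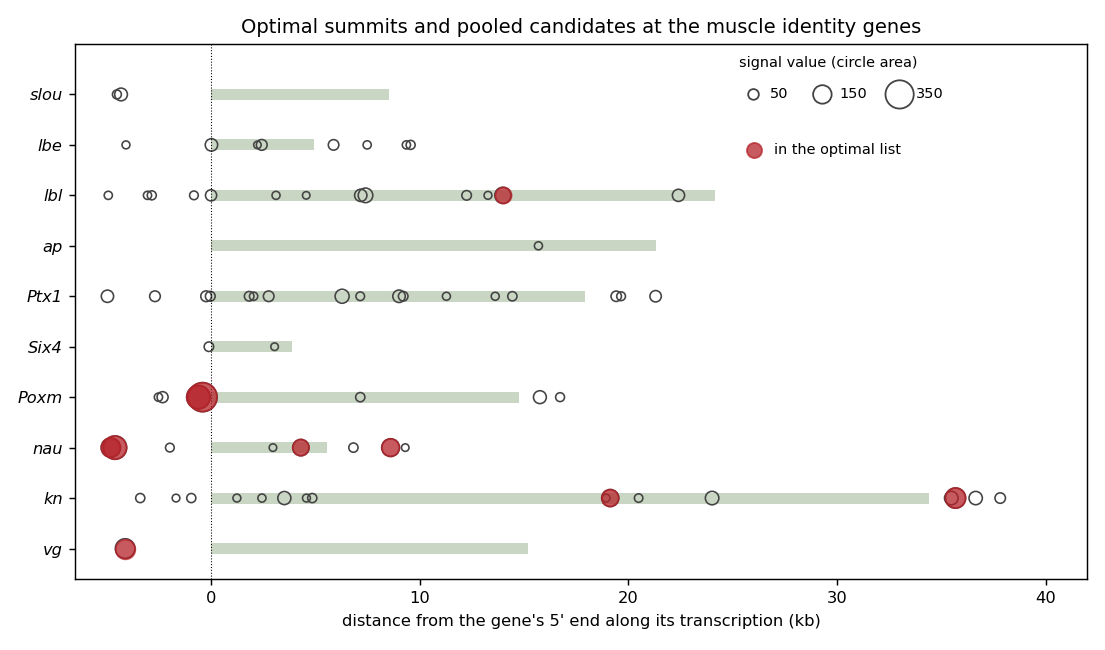
Position of the pooled candidate regions at each of the 10 genes, in kb from the gene's 5' end along its transcription, with the gene body as a green bar. Circle area is the pooled signal value and filled red circles are in the optimal list. The largest circles lie just upstream of Poxm (368 and 239) and 4594 bp upstream of nau (237), and ap and vg each have 1 region.

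The sequences below, taken from the RefSeq sequence of genome release 6 (the dm6 build) and on its forward strand, are those at summits of lbl, nau and Poxm, followed by the strongest candidates at slou, lbe and Six4. They show the base composition behind the values, and which of 16 searched words occur. Capitals mark those words, found on either strand.

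Poxm, chr3R:8334141-8334440, both summits: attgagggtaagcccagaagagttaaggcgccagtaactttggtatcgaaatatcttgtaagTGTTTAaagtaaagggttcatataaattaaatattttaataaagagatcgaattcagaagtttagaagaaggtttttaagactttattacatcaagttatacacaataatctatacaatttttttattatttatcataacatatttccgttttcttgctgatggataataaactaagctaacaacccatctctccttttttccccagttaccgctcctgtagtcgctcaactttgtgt
nau, upstream, chr3R:23722902-23723201, both summits: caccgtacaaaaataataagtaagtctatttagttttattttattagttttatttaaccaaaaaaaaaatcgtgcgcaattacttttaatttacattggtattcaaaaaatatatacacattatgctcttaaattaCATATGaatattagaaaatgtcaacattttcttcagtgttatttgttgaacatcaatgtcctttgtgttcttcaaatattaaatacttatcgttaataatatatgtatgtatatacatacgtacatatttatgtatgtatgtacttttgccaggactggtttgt
nau, intron, chr3R:23713970-23714120: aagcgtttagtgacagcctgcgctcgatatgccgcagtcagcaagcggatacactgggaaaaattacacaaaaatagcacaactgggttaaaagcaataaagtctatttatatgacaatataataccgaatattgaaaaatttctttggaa
lbl, intron, chr3R:21420067-21420217: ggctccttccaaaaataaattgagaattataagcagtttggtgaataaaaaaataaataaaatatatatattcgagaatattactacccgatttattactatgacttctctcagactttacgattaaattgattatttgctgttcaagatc
slou, candidate, chr3R:21561435-21561535: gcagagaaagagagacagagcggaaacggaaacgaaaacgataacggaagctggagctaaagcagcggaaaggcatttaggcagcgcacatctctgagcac
lbe, candidate, chr3R:21446459-21446559: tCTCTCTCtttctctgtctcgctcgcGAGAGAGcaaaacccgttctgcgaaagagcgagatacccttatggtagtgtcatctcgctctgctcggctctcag
Six4, candidate, chr3L:20792821-20792921: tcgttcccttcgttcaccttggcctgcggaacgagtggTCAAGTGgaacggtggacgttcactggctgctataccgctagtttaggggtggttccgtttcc

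The optimal stretches are rich in A and T: GC content is 31.3% at Poxm, 23.7% upstream of nau, 36.4% in the nau intron and 26.5% at lbl. The candidate stretches hold 51.5% at slou, 53.5% at lbe and 56.4% at Six4. The strongest candidates not printed, at Ptx1 and ap, go the other way, with 26.7% and 29.7% in 101 bp. The forkhead word appears at Poxm, an E-box upstream of nau, 2 GAGA words at lbe and the Tinman word at Six4. No searched word is present in the printed stretches of lbl, slou and the nau intron.

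Poxm (FBgn0003129), which encodes a paired-box protein of the ventral and lateral somatic mesoderm, had the strongest summit among the members. It lay on 3R from 8334087 to 8334246, 398 bp upstream of the only annotated start of Poxm, with a pooled signal of 368 (rank 586 of 4434). Its signal was 292 in replicate 1 (rank 338 of 30000) and 78.2 in replicate 2 (rank 2094). The next summit, 598 bp upstream of the start (8334162 to 8334617), had a pooled signal of 239 (rank 1228). It stood at 220 in replicate 1 (rank 593) and 23.0 in replicate 2 (rank 14616), by the region with the nearest summit. The regions given for the first summit also overlapped it in both replicates. Both summits were among the strongest 4434 regions of replicate 1, and in replicate 2 that nearer to the start was. Over all genes, 9.60% had a stronger pooled region in their window. Another 5 pooled candidates in the Poxm window had signals from 29.8 to 72.6. The highest of these lay 415 bp inside the neighbour Ctr1B, a copper transporter gene.

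nau (FBgn0002922, nautilus) encodes the fly relative of the vertebrate MyoD family of basic helix-loop-helix factors, and it carried the most summits, 4. None was within 500 bp of the nau start. The strongest lay on 3R from 23722723 to 23723178, 4594 bp upstream of nau and 380 bp upstream of CG10365, with a pooled signal of 237 (rank 1237). Replicate 1 gave it 236 (rank 523) and replicate 2 gave it 27.5 (rank 11081). The adjoining summit (161, rank 2284) lay 180 bp upstream of CG10365 and stood at 147 in replicate 1, where the region of the first summit also overlapped it. In replicate 2 the region that overlapped it was the same as for the first, with a summit 257 bp away. This upstream site was within the strongest 4434 regions in replicate 1 and not in replicate 2.

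The other summits at nau were weaker but more even between the replicates. The summit inside the gene, in an intron from 23713817 to 23714272 and 4312 bp from the nau start, had a pooled signal of 116 (rank 3644). It stood at 75.4 in replicate 1 (rank 3176) and 38.0 in replicate 2 (rank 6670), with summits 2 and 9 bp from the pooled one. The summit 3069 bp past the 3' end (23709517 to 23709972) had a signal of 137 (rank 2890), with 62.4 in replicate 1 and 74.4 in replicate 2. It lay 413 bp upstream of the neighbour CG10301. Of the 4 nau summits only the intronic one was inside the gene, and its nearest start was that of CG10300, 2518 bp away.

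kn (FBgn0001319, also called collier) encodes the COE-family factor of a dorsal muscle founder, and it had 2 summits. That inside the gene lay on 2R from 14787698 to 14788153, in an intron 9101 bp from an own start, which was also the nearest start of any protein-coding gene. Its pooled signal was 126.5 (rank 3230), with 40.5 in replicate 1 (rank 7266) and 87.9 in replicate 2 (rank 1689). The stronger summit (14771155 to 14771610, 178, rank 1967) lay 1267 bp past the 3' end of kn, 82 bp inside BEAF-32, which encodes an insulator protein. It had 68.05 in replicate 1 (rank 3663) and 105 in replicate 2 (rank 1239). Both kn summits were higher in replicate 2, which was the case at 3 of the 10 member summits, the third being that past the 3' end of nau. A further 14 pooled candidates in the kn window reached 80.2, at a summit 284 bp inside BEAF-32. The strongest of them inside kn had 79.6.

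vg (FBgn0003975, vestigial) encodes a cofactor of the TEAD protein Scalloped, best known from the wing and also active in particular somatic muscles. Its only pooled candidate was also an optimal summit, at 12879865 to 12880320 of 2R, and its signal was 168 (rank 2149). It stood at 124 in replicate 1 (rank 1594) and 40.5 in replicate 2 (rank 6082). The summit lay 4108 bp upstream of vg but 137 bp inside Nmda1, and also within the oppositely transcribed AspRS. The gene itself, 15185 bp long, held no pooled candidate, and the other regions of either replicate in the window had signals of 23.5 or less.

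lbl (FBgn0008651, ladybird late), a homeobox gene of the segment border muscle, had 1 optimal summit, near the lower end of the list. The region, 21419914 to 21420369 on 3R, is in an intron, 13991 bp from the lbl start, with a pooled signal of 114 (rank 3735). The start of the neighbour CheB93b, 11019 bp away, was nearer than that of lbl. The signal was 93.3 in replicate 1 (rank 2407) and 26.8 in replicate 2 (rank 11515). The summits of the replicates were 22 and 83 bp from the pooled one. The next region of lbl fell just outside the optimal list: a summit in a UTR, 7410 bp from the start (21426495 to 21426950), with a pooled signal of 93.1 (rank 4937). In replicate 1 it was overlapped by a region of signal 40.1 (rank 7379), with its summit 98 bp away, and by a stronger one at 21426391 to 21426846, with 66.4 (rank 3783). In replicate 2 a region of signal 44.1 (rank 5302) overlapped it, with its summit 242 bp away.

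**Figure D2:**
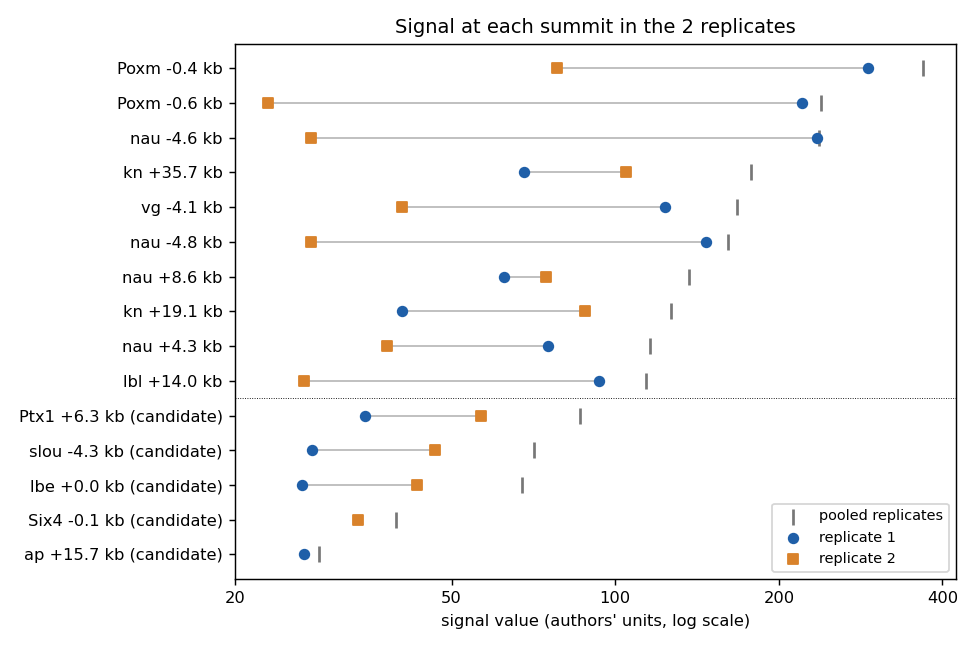
Signal values (log axis) of the 10 optimal summits, above the dotted line, and of the strongest pooled candidate of the 5 members without one, below it. Labels give the distance from the gene's 5' end, circles are replicate 1, squares replicate 2 and ticks the pooled replicates. The distance between circle and square is widest at the summits 598 bp upstream of Poxm (220 and 23.0) and 4594 bp upstream of nau (236 and 27.5).

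The replicates ranked the member summits differently. Replicate 1 had the higher signal at 7 of 10 member summits, against 67.7% of the 4264 optimal peaks with a region in each replicate. Replicate 1 contributed 31.6% to 90.6% of the summed signal at the members' summits. Over all such optimal peaks the middle 50% lay between 46.6% and 68.3%, with a median of 57.4%. The summits upstream of Poxm and nau, in the lbl intron and upstream of vg lay above that range, and both kn summits and that past the 3' end of nau lay below it. The summit in the nau intron was inside the range. The GC content of the 101 bp at the summit ran from 21.8% at the strongest nau summit to 40.6% at the summit 598 bp upstream of Poxm, and at both of these replicate 1 had the higher signal. The median over the members' 10 summits was 31.2% GC, against 33.7% for all optimal summits.

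The remaining 5 members had no optimal summit, yet every member had a pooled candidate, against 83.3% of all genes. The authors' −log10 q is higher for a more significant region. For the strongest pooled candidates it was 2.24 at Ptx1, 1.71 at slou, 1.57 at lbe, 0.581 at Six4 and 0.253 at ap. Ptx1 (FBgn0020912), a paired-like homeobox gene expressed in ventral muscles, had the strongest of these, in an intron on 3R from 30918815 to 30919270, 6289 bp from the start. Its pooled signal was 86.0 (rank 5526), with 34.7 in replicate 1 (rank 8904) and 56.5 in replicate 2 (rank 3544). That rank put it within the strongest 4434 of replicate 2. The nearest optimal summit to Ptx1 lay 24875 bp from the gene, in an intron of Sap-r (102). Of the 8231 genes without an optimal summit, 8.13% had a stronger pooled candidate than Ptx1.

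slou (FBgn0002941, slouch), an NK-type homeobox gene, had 2 overlapping pooled candidates. The stronger, on 3R from 21561257 to 21561712 and 4303 bp upstream of the only start, had a signal of 70.8 (rank 7100). It was found in both replicates, at 27.7 in replicate 1 (rank 12172) and 46.7 in replicate 2 (rank 4859). The body of slou held no pooled candidate. The nearest optimal summit lay 28313 bp past the 3' end of slou, 580 bp upstream of sp3, with a signal of 630 (rank 188).

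lbe (FBgn0011278, ladybird early), the neighbour and relative of lbl, had 8 pooled candidates, 3 of which lay between the genes and were also in the lbl window. The strongest was at the lbe start itself, 28 bp inside the gene on 3R from 21446281 to 21446736. Its pooled signal was 67.4 (rank 7559), with 26.5 in replicate 1 (rank 13004) and 43.3 in replicate 2 (rank 5462). The next lay in an intron 2438 bp from the start (50.9), with 30.3 in replicate 1 and 22.1 in replicate 2. All 8 were below the optimal list, whose lowest signal is 100.7.

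Six4 (FBgn0027364), a homeobox gene of the sine oculis class needed in the somatic mesoderm and gonad, had 2 pooled candidates. The stronger lay 94 bp upstream of a start, at 20792643 to 20793098 of 3L, and had 39.5 (rank 15160). It had a counterpart in replicate 2 (33.6, rank 8107) and none in replicate 1. Replicate 1 held no candidate anywhere in the Six4 window, the only member for which this was so (9 of 10, against 81.3% of all genes with a replicate 1 candidate). In replicate 2 all 10 members had one, against 86.6% of all genes. The strongest replicate 2 region in the Six4 window (49.2, rank 4492) had no pooled counterpart. It lay in an intron of the neighbour Pcif1, 3548 bp past the 3' end of Six4. An optimal summit 61 bp upstream of tzn (428, rank 435) lay 5807 bp from Six4, just outside the window.

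ap (FBgn0267978, apterous), the LIM homeobox gene of the lateral transverse muscles, had the lowest pooled signal of the members. Its single pooled candidate lay on 2R from 5711602 to 5712057 in an intron, with a signal of 28.5 (rank 23783). Replicate 1 gave it 26.8 (rank 12790), and replicate 2 had no region there. The nearest optimal summit on the arm was 325402 bp from the gene. Over all genes, 78.8% had a stronger pooled region than ap, and among genes of like window length 87.9% did.

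**Figure D3:**
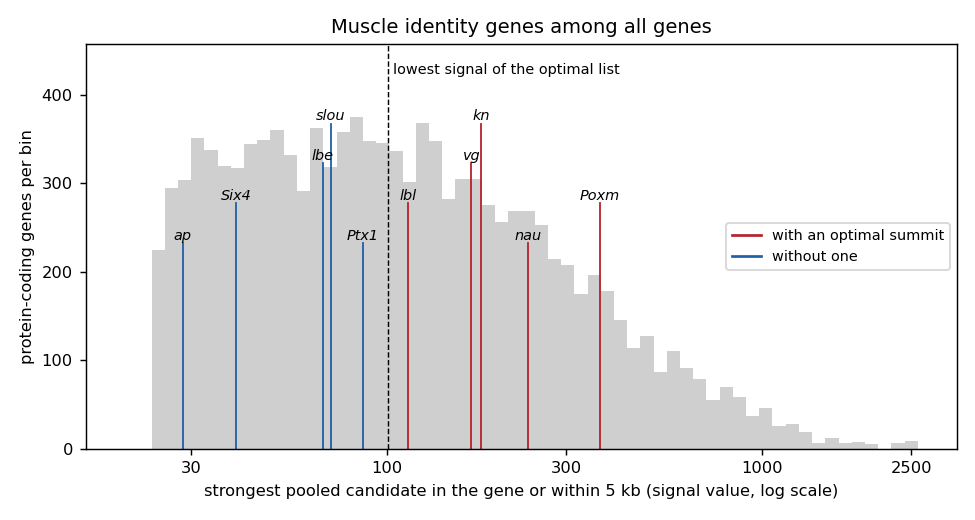
Strongest pooled candidate in the window of each of the 11620 protein-coding genes that have one (grey bars, log axis of signal value), with the 10 members as lines, red with an optimal summit and blue without. The members span the range from ap (28.5) to Poxm (368), and the dashed line marks the lowest optimal signal, 100.7.

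Candidate regions at own starts were found at more members in replicate 2 than in replicate 1. A candidate within 500 bp of an own start was present in replicate 2 at 6 of 10 members (Poxm, lbe, lbl, slou, Ptx1 and Six4), against 43.6% of all genes. In replicate 1 it was present at 2 of 10 (Poxm and lbe), against 34.6% of all genes. At Ptx1 the replicate 2 region lay 136 bp upstream of the start with a signal of 52.6 (rank 4017). At lbl it lay 7 bp inside (45.4, rank 5067), and at slou 131 bp upstream with a signal of only 17.2 (rank 22988). The 101 bp at these summits held from 52.5% GC at lbl to 63.4% at Ptx1, beside 44.5% at the Poxm summit of replicate 2 and 42.1% for the arms. The part of base composition in this was not tested. At ap, nau, kn and vg no list had a region within 500 bp of an own start.

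The density of candidates differed widely between members. The 9 separate member windows, 248 kb in all, held 72 pooled candidates, or 2.90 per 10 kb, against 2.24 per 10 kb of the arms. Ptx1 (17 candidates, 6.09 per 10 kb), lbe (5.35) and nau (5.15) were the densest, whereas ap (0.319), vg (0.397) and slou (1.08) were sparse. Neighbouring candidates whose regions overlap, as at Ptx1, were counted separately, so these are not densities of separate stretches. Among genes of like window length, 4.69% were denser than Ptx1, and 90.0% were denser than ap. The lone region of vg had a signal of 168, while none of the 17 at Ptx1 exceeded 86.0. Of the 72 candidates, 32 lay in introns, 19 between genes, 18 within 500 bp of a start, 2 in coding exons and 1 in a UTR. Locations of all pooled candidates were not counted, so these numbers are not set against a background. A region of each replicate overlapped 46 of the 72 candidates (63.9%), against 54.2% of all 30000 pooled candidates.

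**Figure D4:**
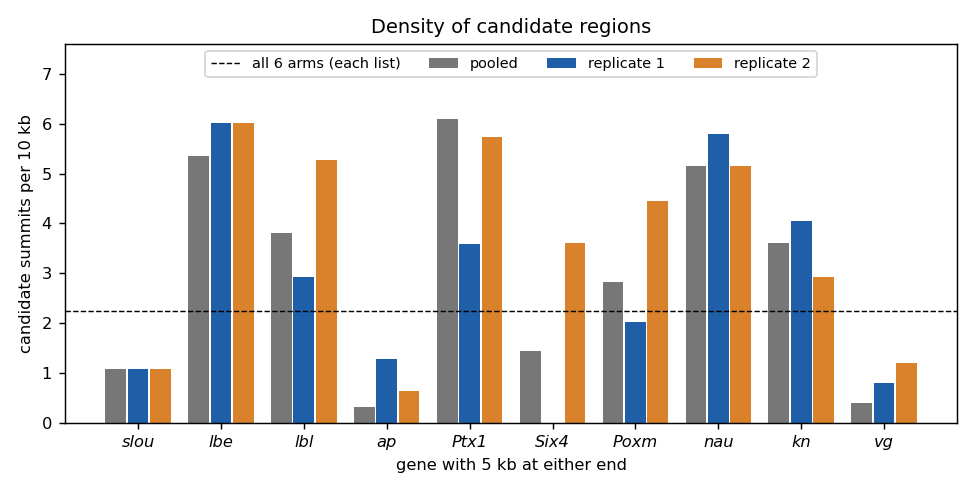
Candidate summits per 10 kb in the window of each member, for the pooled list and both replicates, with the density of the whole arms (2.24, equal for the lists) as a dashed line. Ptx1, lbe and nau stand above 5 per 10 kb in the pooled list and ap and vg below 0.4, and Six4 has no replicate 1 bar.

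The candidates of the replicates matched in part. Of the 67 replicate 1 candidates in member windows 46 (68.7%) overlapped a replicate 2 candidate by 1 bp or more, against 53.5% of all replicate 1 candidates. Of the 85 replicate 2 candidates 44 (51.8%) overlapped one of replicate 1, against 52.5% of all. With summits required within 100 bp of each other, 23 of each list's regions matched (34.3% of replicate 1 and 27.1% of replicate 2). The share of all candidates was not computed at this setting, so these percentages have no background beside them.

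The members slou, lbe and lbl lie in 1 homeobox gene cluster on 3R with tin, bap and C15. From tin to slou, with 5 kb added at either end, the cluster spans 188 kb and held 6 optimal summits, or 0.319 per 10 kb, against 0.331 per 10 kb of all arms. The strongest was that near sp3 (630), followed by that 209 bp upstream of tin (385), the heart and visceral mesoderm gene. The other 4, among them the lbl intron (114), lay between 105 and 118. Neither C15 nor bap had an optimal summit within its window. The pooled candidates, 43 in number, came to 2.28 per 10 kb.

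Of 12 other founder identity genes, 5 had an optimal summit, against the 41.0% of all genes. These were org-1 itself (484, 336 bp upstream of its start), tup (319, at the neighbour CG10602), tey (159, in an intron), Dr (137, past its 3' end) and caup (135, 3166 bp upstream). No summit was found at Kr, eve, lms, ara, mirr, run or eya, and Kr had no pooled candidate either. mirr (99.8, rank 4480) and eya (95.6, rank 4764) had regions just below the optimal list. The strongest candidates of run (57.2), eve (48.5), ara (46.2) and lms (36.8) were weaker. With the strongest 4434 regions of 1 library in place of the optimal list, the count was 3 in replicate 1 and 6 in replicate 2. Over all genes the shares were 40.4% in replicate 1 and 40.5% in replicate 2. Neither these shares nor the 41.0% are matched for window length. The gene eya is also counted among the genes for partner proteins below.

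Of 7 genes for partner proteins of the members, hth (268, 3736 bp upstream) and Ssdp (215, in a UTR) had an optimal summit, each with 5 in the window (2 of 7, against 41.0% of all genes). The hth window held 84 pooled candidates and that of Ssdp 8, and the 41.0% is not matched for window length. The homeodomain cofactor gene exd had no pooled candidate. The genes of Scalloped (sd, 96.1), of Eya, a partner of sine oculis-class proteins (eya, 95.6), and of the LIM-binding protein Chi (97.5) each had a pooled candidate between ranks 4634 and 4764. The gene of the bHLH partner da had 1 weak candidate (25.6). With either replicate alone 4 of the 7 had one of its strongest 4434 regions, against 40.4% of all genes in replicate 1 and 40.5% in replicate 2. With the 1000 strongest optimal peaks 0 of the 7 were left, against 15% of all genes.

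Within 50 bp of the summit none of the 10 held the T-box word AGGTGTG, which is present in 0.586% of all optimal windows of that width, nor its shorter form GGTGTG (2.73%). The forkhead word TAAACA was found at Poxm (1 of 10, against 16.6%), 1 homeodomain word TAATTA at the kn summit beside BEAF-32 (8.95%) and 1 E-box CATATG in the kn intron (4.44%). Within 150 bp the homeodomain word was present at 4 of 10 summits, against 22.1% of all. The E-box CATATG was present at 3 of 10 (11.7%), and the forkhead word at 2 of 10 (37.8%). The GAGA word GAGAGAG was present at 2 of 10 (7.94%). Single summits held GGTGTG (Poxm, 10.5%), the Tinman word TCAAGTG (kn, 6.13%), the TEAD word GGAATG (nau, 10.8%) and the Mef2 motif (lbl, 15.1%). The E-boxes CAGCTG and CAGGTG (which reads CACCTG on the other strand), the GATA word AGATAA, the Ets word GGAAGT, the sine oculis word TGATAC and the DREF word TATCGATA were in none of the 10 windows of 301 bp. Among all optimal windows of that width their shares were 13.8%, 8.07%, 20.2%, 10.1%, 9.16% and 2.37%. The T-box word AGGTGTG was also in none of the 10 windows of 301 bp, against 2.46% of all. The windows of the paired summits at Poxm and nau overlap, so these counts are not of separate stretches.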

How the data were processed

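ChIP-seq was measured in 2 biological replicates of 1 group. Per the labels, chromatin was sonicated to a size range of 200 to 800 bp. The authors' deposited dm6 lists give a summit offset, a −log10 q and a signal value per region. The signal value and −log10 q were made by the authors from each library, or both pooled, with a control alignment, per the file descriptions. The optimal list was thresholded on the irreproducible discovery rate. Neither the aligner nor the caller nor the signal's scale is given in the sources used here.

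Python 3.11.15, numpy 2.4.6 and pandas 2.3.3 were used with Ensembl release 115 gene models (BDGP6, the dm6 coordinates) and the RefSeq sequence of genome release 6, whose arms hold every region. Summits were start plus column 10, written from base 1. Ranks are by signal. A replicate's value is that of its overlapping region with the nearest summit. Locations were assigned in the order promoter (within 500 bp of a protein-coding start), coding exon, UTR, intron, intergenic. Nearest starts are of protein-coding transcripts. Words were searched on both strands within 50 and 150 bp of the summit, and window and word searches were tested on simulated data. The members and lists were chosen with earlier results of these data known, so no p is given. All members, all genes of both further lists and the gene nearest to each member summit are named. The dm3 lists were not used.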

Additional observations from a re-analysis of the deposited data

How the results depend on the processing

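The count of 5 members with an optimal summit was 4 within 2 kb (vg left out), 6 within 10 kb (Six4 added) and 5 by overlap of regions. It was 3 with summits inside the gene and 1 with the 1000 strongest peaks. The summits in the windows, 10 in the main setting, were 6 within 2 kb, 3 inside the gene and 1 with the 1000 strongest peaks. The other founder genes (5) gave 1 inside the gene and 2 with the 1000 strongest peaks, and the partner genes (2) gave 0 with these peaks. The share of all genes (41.0%) was 28% within 2 kb, 56.2% within 10 kb, 41.8% by overlap of regions, 11.6% inside the gene and 15% with the 1000 strongest peaks. Members nearest to a summit (2) were 1 with those peaks. The share of all genes for this count was computed in the main setting only (19.0%). With 1 replicate left out, the members ranged from 4 to 5, their summits from 7 to 11, the founder genes from 3 to 6, the partner genes from 4 to 4, the share of all genes from 40.4% to 40.5% and the members nearest to a summit from 2 to 3. Replicate 1 candidates shared with replicate 2 fell to 23 with summits within 100 bp, against 46 with an overlap of 1 bp. Windows and stricter lists change these counts by construction, and the cause of the changes with 1 replicate was not tested.

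Read depth is unknown and 2 libraries of 1 group allow no test over conditions. No paired analysis was possible because there is 1 group. The dm3 alternative was not run, since no dm3 gene models were used here. Windows of 5 kb mix regions at a member with those at its neighbours.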
